A study of Mus musculus with 188 samples.

Results

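The cells described here are the single diploid mESCs furthest into S phase, those with 60% or more of their autosomal bins replicated. They number 13 of the 63 diploid cells with values that match a labelled well, and of 188 labelled cells in the series. They were set beside the 35 of these diploid cells with 50 to under 60% replicated. The first are called late S and the second mid S cells. The groups were chosen by a measured value, the percentage of 50 kb autosomal bins in the replicated state, averaged over the 129 and Castaneus homologs of a cell. Apart from homolog asynchrony and missing scores, every autosomal difference between them is therefore a description without a test. All of these cells belong to F121-9, a hybrid line of mouse embryonic stem cells with 1 chromosome set from 129 and the other from Castaneus, grown in N2B27 medium with 2i and LIF and labelled as sorted from S phase by DNA content. No culture, treatment or time is labelled, so the cells are replicates only as single cells of 1 line. Haploid H129-2 mESCs, grown the same way, served only for the schedule of replication and for a side-by-side value.

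During S phase a cell copies its genome in large domains that follow a preferred order. Gene-rich, open chromatin usually goes first, and gene-poor chromatin at the nuclear periphery goes last. A replicated stretch is present in more copies than an unreplicated stretch of the same cell, so low-coverage sequencing of 1 cell can mark how far replication has come. In the deposited states a bin of a cell is either replicated, 1, or not, 0.

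The name late S covers a narrow range and does not refer to a sorting gate. The study took most of its cells from the middle of S phase, and widened the gates to early and late S for the haploid line. By autosomal share replicated, the cells, named by plate well, were G10 at 60.4%, H9 at 60.7%, B4 at 61.02%, E7 at 61.4%, E3 at 61.4%, C3 at 61.7%, C11 at 61.8%, G1 at 61.9%, C10 at 62.1%, G11 at 62.2%, B10 at 66.03%, F10 at 66.4% and A11 at 78.8%. Only 3 of them were past 65%, and most lay just over the limit. The cells just below it had 59.7% and nearly 60%, so no gap separated late from mid S. The late cells averaged 63.5% ± 4.95 (SD, n = 13) and the mid cells 55.8% ± 2.75 (SD, n = 35). Without A11 the late mean was 62.2% ± 1.92 (SD, n = 12), and the distance to mid S was 6.47 percentage points. A11 stood 12.5 points beyond the next cell, and the main values that rest on it are given with and without it.

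C3, E3 and A11 need to be known before the results, and they are marked in the plot of autosomal against X chromosome replication. C3 had 78.8% of its X chromosome replicated, which was 17.1 percentage points more than its autosomes. E3 had 63.2% of its X replicated, 1.76 points more than its autosomes, and A11 79.1%, which was 0.265 points more. These were the 3 highest differences among the 63 diploid cells, and in the other 10 late cells the X minus the autosomes gave -12.1 to -3.72 points. C3 and E3 also lacked a smoothed score in 8.75% and 8.54% of all bins, against 5.54% to 5.65% in the other late cells. Of the 2845 bins on the X, C3 had no score in 698 and E3 in 347, where most late cells had none in 199. The study's methods scaled chromosomes that were aneuploid in a cell to control cells, and which chromosomes of which cells is not given in the sources used here.

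**Figure D1:**
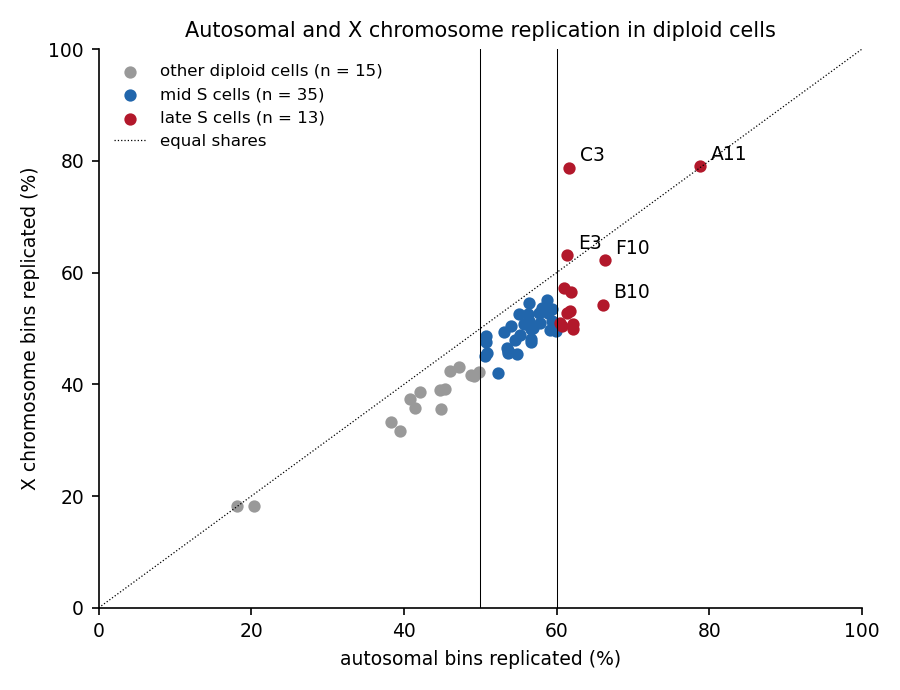
Percentage of X chromosome bins replicated (vertical axis) against percentage of autosomal bins replicated (horizontal axis), 1 point per diploid cell. Vertical lines mark the limits of mid and late S at 50% and 60%, and the dotted line marks equal shares. C3, E3 and A11 lie on or above that line, whereas the other late cells, including B10 and F10, lie below it.

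The X chromosome was not counted in choosing the cells. Its states nevertheless come from the same threshold of each cell as the autosomal states, so the test is not independent of the choice. Late cells had replicated a larger share of the X than mid cells. The 13 late cells ran from 50.0% to 79.1% with a median of 54.3%, and the 35 mid cells from 42.02% to 55.1% with a median of 49.9%. The groups overlapped, with 6 late cells above every mid cell. The means were 58.4% ± 10.04 (SD, n = 13) and 49.6% ± 3.12 (SD, n = 35), a difference of 8.81 percentage points. A two-sided permutation test over cells gave p = 1e-05, the smallest its 100000 resamples can give, or 3e-05 after Benjamini-Hochberg adjustment over 3 tests, and all 13 late cells lay above the mid mean. The difference was 7.09 points without A11 (permutation p = 3e-05), 6.52 without C3 and E3 (permutation p = 0.00013) and 4.23 without all 3 (permutation p = 0.0011). In both groups the X lagged behind the autosomes. The X minus the autosomes averaged -6.15 points ± 2.34 in mid cells (SD, n = 35) and -5.09 points ± 8.04 in late cells (SD, n = 13). These means lay 1.06 points apart, well within the spread over late cells. The late mean and spread rest on C3, E3 and A11, at 17.1, 1.76 and 0.265 points. The other 10 late cells had -12.1 to -3.72 points, and the medians were -8.52 in late and -6.40 in mid cells. Whether the X rose in step with the autosomes was not tested. Loss of the X is, per the study, the most frequent karyotype change in this line, and its part in these values was not tested.

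Homologs mostly carried the same state. In the authors' processing a segment started with the same state on both homologs and differed only where enough parsed reads fell outside the range of control cells, which lowers every count of asynchronous bins. Late cells had 0.386% ± 0.485 of autosomal bins asynchronous (SD, n = 13) and mid cells 1.197% ± 2.01 (SD, n = 35). H9 was highest of the late cells at 1.68%, and E3, C3, G11 and F10 had none. The difference of -0.811 points did not pass the two-sided permutation test (p = 0.16, the same after adjustment). The choice of cells averaged the homologs and did not use their difference. Both come from the same autosomal states, so the test is not independent of the choice. The mid mean was raised by a few cells, with F11 highest at 8.58%, and the medians were 0.157% in late and 0.399% in mid cells. Below the mid mean lay 12 of 13 late cells, and most mid cells as well. Among the late cells' autosomal bins, 0.277% were replicated on the 129 homolog alone and 0.109% on the Castaneus homolog alone.

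The share of bins without a smoothed score was taken as a measure of data quality. It averaged 6.03% ± 1.16 (SD, n = 13) in late and 5.61% ± 0.230 (SD, n = 35) in mid cells. The difference of 0.419 points gave a permutation p of 0.0399 and an adjusted p of 0.0598, so it did not pass. It rested on C3 and E3, without which it was -0.0556 points (permutation p = 0.56).

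To see where in the program late cells differed from mid cells, each autosomal bin was ranked by its mean smoothed score over 75 haploid cells and the ranks were cut into 10 deciles, 1 earliest and 10 latest. The difference lay in the middle of the schedule. In the first decile, late and mid cells had replicated 97.1% ± 2.43 and 97.3% ± 3.09 of homolog copies (SD over 13 and 35 cells). The values were 87.04% and 76.5% in decile 5, 74.6% and 55.7% in decile 6, 51.4% and 31.2% in decile 7, and 27.1% and 12.9% in decile 8. In the last decile they were 4.15% and 1.81%, and without A11 the late value there was 2.50%. The largest difference, 20.2 points, was in decile 7. Without A11 it was 17.3 points there and 17.4 points in decile 6, so that the maximum moved. It also moved to decile 6, with A11 kept, at 31.2 points against mid cells of 45 to under 55%, at 19.8 points with groups set on odd-numbered and values read on even-numbered autosomes, and at 12.4 points with the smoothed score in place of the state. Deciles 5 to 8 together held 81.7% of the whole difference, the first 3 deciles 1.195% and deciles 9 and 10 11.6%. Without A11 deciles 5 to 8 held 84.2%, the first 3 deciles 2.85% and deciles 9 and 10 6.18%.

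Without A11 the late cells differed most from each other at this front, with an SD of 5.60 points in decile 6 and 5.69 in decile 7 against 4.10 in decile 8 (n = 12). The place of this spread was also largely set by the choice of cells. They ran from 66.6% to 83.5% in decile 6, from 41.9% to 60.6% in decile 7 and from 17.5% to 29.2% in decile 8, while A11 had 91.6%, 86.6% and 74.6%. A11 had replicated 24.03% of the last decile, against 0.576% to 4.90% in the other late cells. In the first decile A11 had 93.97%, within the range of the others, which started at 91.9%.

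**Figure D2:**
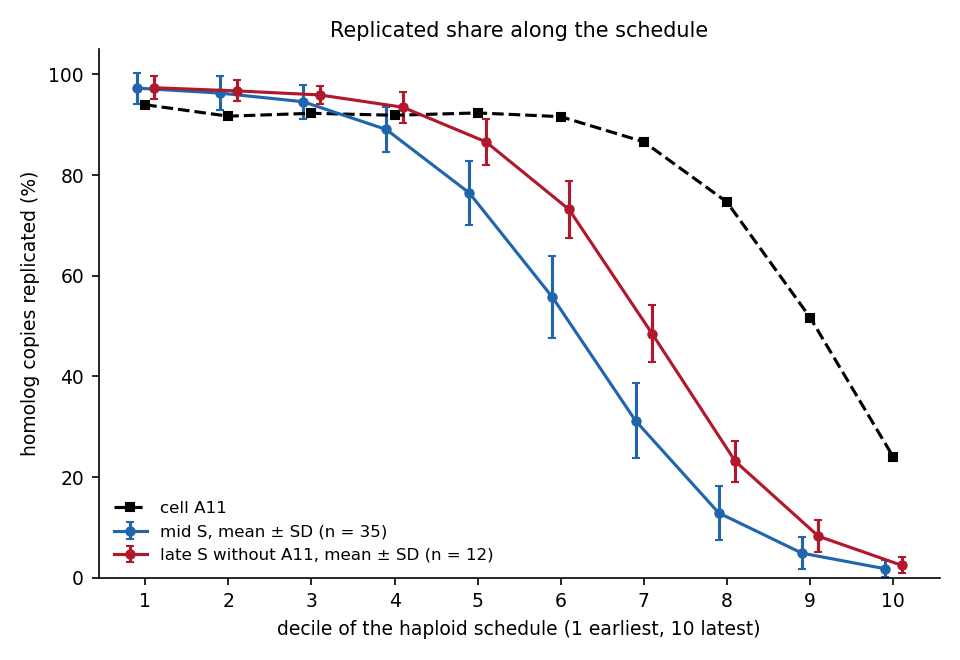
Percentage of homolog copies replicated (vertical axis) in each decile of the haploid schedule (horizontal axis, 1 earliest and 10 latest). Points and bars are the mean ± SD over 35 mid S cells and over 12 late S cells without A11, and squares are A11. The late curve lies to the right of the mid curve from decile 4 on, and A11 lies further right, with 51.7% in decile 9.

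How closely a cell followed the schedule differed little between the groups. The area under the ROC curve, which is 1 when every replicated bin of a cell is scheduled before every unreplicated bin, averaged 0.919 ± 0.0397 (SD, n = 13) in late and 0.931 ± 0.0288 (SD, n = 35) in mid cells. F10 at 0.959 and G11 at 0.959 were the best ordered late cells and A11 at 0.811 the least ordered. Without A11 the late mean was 0.928 ± 0.0237 (SD, n = 12), a distance of -0.00275 from mid S. Bins replicated more than 10% of the schedule ahead of a cell's own position made up 2.69% of bins in late and 2.92% in mid cells. Bins left unreplicated more than 10% behind it made up 3.58% and 3.33%. A11 had the most bins behind of the late cells, 5.75%, followed by H9 at 5.003% and E3 at 4.99%.

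Pairs of late cells carried the same state in a median of 81.5% of autosomal bins, pairs of mid cells in 82.6%, and pairs of 1 late and 1 mid cell in 80.9%. G11 and F10 were the late pair most alike, at 87.9%. A11 shared 70.9% to 77.8% with the other late cells, whose pairs among themselves ran from 77.3% upward.

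Unreplicated DNA lay in fewer stretches in late cells. A late cell had 408 ± 50.8 unreplicated runs per homolog set (SD, n = 13) and a mid cell 465 ± 39.5 (SD, n = 35). F10 had the fewest, 318, and C3 the most, 495. The median run was 1294 kb ± 196 in late and 1358 kb ± 117 in mid cells, a distance of -63.6 kb that lay within the spread of either group and was -26.6 kb without A11, which had the shortest at 850 kb. The longest run of a cell averaged 13096 kb in late and 15661 kb in mid cells.

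Where most copies were replicated in late but not in mid S, the new bins mostly sat next to DNA that most mid cells had already replicated. The states come from segments of smoothed scores, and the late cells were chosen for having more replicated bins. Such nearness was therefore largely set in advance. No background share was computed, and a spread from these domains was not tested. Taking a bin as replicated in a group when at least 50% of its homolog copies were, 4033 bins in 686 runs were replicated in late but not in mid S. Of these bins, 64.7% lay in runs joined on 1 side to a domain replicated in mid S, 27.8% in runs that closed a gap between such domains, and 7.49% in 42 runs apart from any. Majority-unreplicated domains numbered 439 in mid S and 376 in late S, and the longest measured 17100 and 10750 kb. A further 138 bins were replicated in most mid but not most late copies.

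Every chromosome had a higher mean share in late than in mid S. Chromosome 11 was highest in late cells with 72.3% ± 4.96, followed by chromosome 19 with 71.996% ± 6.29, and chromosomes 16 and 3 were lowest with 58.3% ± 5.17 and 57.5% ± 6.82 (SD, n = 13 each). The same chromosomes, 11 and 19, led in mid cells with 65.3% and 62.7%. The distance between groups ran from 6.22 points on chromosome 4 to 9.66 points on chromosome 17, a range narrower than the SD over late cells on any autosome. In A11, chromosome 19 had 88.6% and chromosome 15 had 72.2% replicated.

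**Figure D3:**
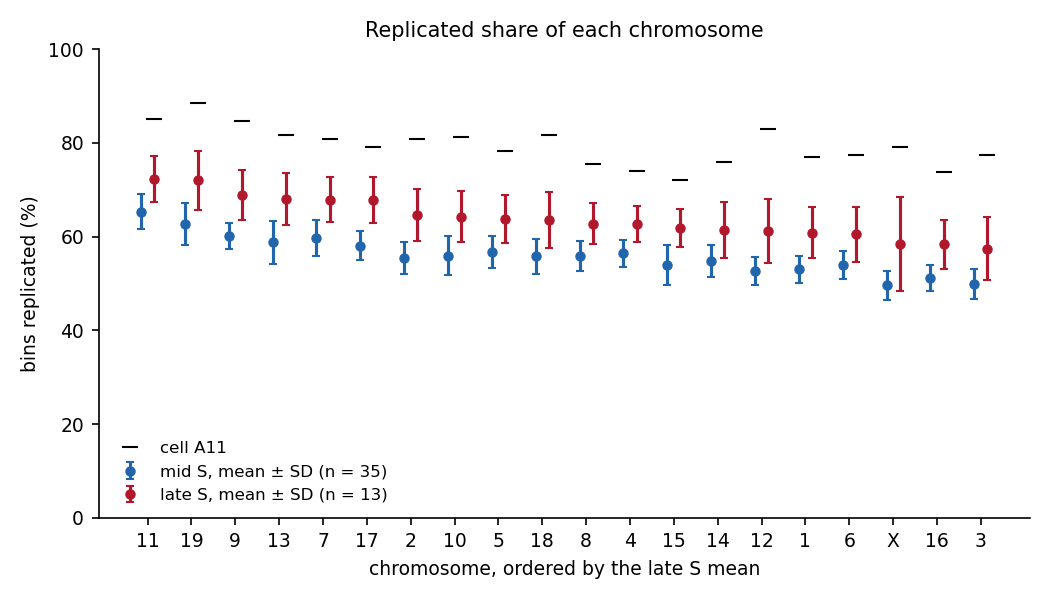
Percentage of bins replicated (vertical axis) on each chromosome (horizontal axis, ordered by the late mean), as mean ± SD over 35 mid S and 13 late S cells, with A11 as a dash. Chromosome 11 is highest and chromosome 3 lowest in late cells, and the late bar is longest on the X, where C3 and A11 lie near 79%.

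Bins were counted as gained when the share of homolog copies replicated was at least 50 percentage points higher in late than in mid cells. Of 45112 autosomal bins, 521 were gained, which is 1.15%, and 0, or 0%, were lower by 50 points. The groups were selected on these states, so a gain is what the choice of cells asks for and only its place is described. Gained bins came from 24.02% in mid to 79.7% in late cells and had a median schedule rank of 60.6, where 100 is the latest. Within deciles 5 to 7, the 444 gained bins held 4.01 starts of protein-coding genes per Mb and the 13089 other bins 6.06, with a median GC content of 41.4% and 41.1% and a repeat-masked share of 26.5% and 30.3%.

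The 8 regions with the largest mean gain, each of 5 or more neighbouring bins, were small and held few genes. Coordinates are in mm10. The first was chr11:63250001-63800000, with 3 annotated genes and none of them protein-coding. All 13 late cells had replicated it in full, against 9 of 35 mid cells, and the shares of homolog copies were 100% and 32.2%. At chr5:26250001-26750000, which holds Gm7361, 11 late and 5 mid cells had replicated it in full, while B4 and G11 had not replicated it at all.

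At chr1:15050001-15500000, which overlaps the start of the potassium channel gene Kcnb2, shares were 77.8% in late and 13.97% in mid cells. The region chr2:60950001-61500000 overlaps Rbms1, which encodes an RNA-binding protein, and had 84.6% and 22.7%. At chr2:114200001-114450000, with the zinc finger gene Zfp770, they were 87.7% and 26.9%, and C3 had none of it replicated. The region chr3:137050001-137300000, without a protein-coding gene, had 86.2% and 24%. A 400 kb region of chromosome 18 with the urea transporter gene Slc14a2 and Setbp1 had 79.8% and 19.1%, and chr10:38550001-38850000, with Rfpl4b, had 69.2% and 9.43%. A11 had replicated all 8 in full, and leaving it out moved each late share by under 3 points.

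Haploid cells at a like distance into S phase gave values that the choice of late cells had not used. Gained bins were replicated in 34.6% of copies in 19 haploid cells with 50 to under 60% replicated, and in 60.8% in 11 haploid cells between 60% and the progress of F10. Over all bins the same haploid cells had 55.7% and 64.6%. At bins of deciles 5 to 7 that were not gained they had 52.2% and 72.6%. The haploid distance at gained bins was thus larger than over all bins, and smaller than the diploid one from 24.02% to 79.7%. It exceeded the distance at the not gained bins of deciles 5 to 7 by less. Gained bins were also less replicated than those bins in both haploid groups. Of the 8 regions, chr11:63250001-63800000 had 39.2% and 93.4% in these haploid groups, whereas the Kcnb2 region had 27.5% and 45.5%. The progress of the haploid and diploid groups was not equal, with means of 55.4% and 64.3% in haploid cells, and no test was made.

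A block of the genome had not begun in any late cell. In 4322 bins, 9.58% of those used, both homologs of all 13 cells were unreplicated. Without A11 the count was 6400, so that 2078 of those bins had replicated in A11 alone. The 4322 bins had a median schedule rank of 92.5, and 2710 of them lay in the last decile and 1292 in decile 9. They were poor in genes, with 1.15 protein-coding starts per Mb against 8.58 over all used bins, had a median GC content of 37.1% against 41.4%, and were 40.8% repeat-masked at the median against 30.7%. The last decile as a whole had 0.904 starts per Mb and a median GC content of 37.1%. In mid cells 4138 bins, 9.17%, were unreplicated in all 35 cells, with a median schedule rank of 91.3 and 37.3% GC. Such a block was therefore not particular to late cells, and 2226 bins were unreplicated in all cells of both groups. At the other end, 12721 bins were replicated on both homologs of all late cells, with 13.4 starts per Mb and 44.8% GC.

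The longest such region, chr8:96950001-102200000, spans 5250 kb and holds a single protein-coding gene, Cdh8, a cadherin of neurons. It was also unreplicated throughout in 30 of 35 mid cells. The second, chr5:57250001-62000000, holds Pcdh7, another adhesion gene, and G6pd2. The third, chr12:46150001-50500000, holds Nova1, a neuronal splicing regulator, and the kinase gene Prkd1. The region chr6:75550001-78800000 contains Ctnna2 and Lrrtm1, which act in neurons, and the Reg1 and Reg2 genes, expressed in pancreas. No protein-coding gene lay in chr8:49550001-53250000 or chr14:80650001-84050000. The synaptic adhesion genes Lrrc4c and Cadm2 lay in chr2:97050001-100150000 and chr16:67300001-70100000. In mid cells the 8 regions had 0.0907% to 2.11% of copies replicated, and haploid cells of late progress had 0% to 8.81%.

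A small share of early DNA was unreplicated in some late cells. In 698 bins scheduled in the first 40%, fewer than 80% of late homolog copies were replicated. They made up 3.87% of the 18045 bins of that part of the schedule, or 3.51% without A11, and 868 bins, or 4.81%, met the same limit in mid cells. The longest region was chr10:79750001-81100000, with 80 protein-coding genes, Gng7, Sbno2, Dot1l, a histone methyltransferase gene, and Ap3d1 among them, and a GC content of 53.5%. Its late share was 67.5% against 90.4% in mid cells. Of the late cells 7 had it in full, E7 and A11 had none of it, and C11 had 3.85%. A region of chromosome 8, chr8:70150001-71250000, with Crtc1 and Ell, had 75.3% in late and 90.6% in mid cells, and H9 and A11 had none. Without A11 its late share was 81.6%, above the limit.

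On chromosome 11, the region chr11:120150001-121050000 with Ccdc57 and Bahcc1 had 57.3% in late and 82.5% in mid cells, and chr11:30200001-31100000 with Psme4 and Sptbn1 had 71.8% and 92.5%. In the latter E3, G11 and F10 had none replicated, whereas A11 had all of it. The other 2 regions, chr7:26550001-27450000 with Sptbn4 and Ltbp4 and chr6:148850001-149550000 with Bicd1, had 75.96% and 76.9% in late cells, and the latter had 83.3% without A11. Haploid cells of late progress had 91.9% to 100% in the 6 regions. Different late cells lacked different regions, and A11 lacked 4 of the 6. In all, 303 bins, or 0.672%, had a late share at least 20 points below the mid share, against 7851, or 17.4%, at least 20 points above it. The lower bins, a set chosen after the values were seen, held 17.2 protein-coding starts per Mb and the higher bins 4.24. These 2 sets were not matched by schedule, with median ranks of 38.7 and 61.1. Starts per Mb over all used bins fell from 19.8 in decile 1 to 4.56 in decile 7.

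The reverse, late DNA already replicated in more than 50% of late copies, was found in 67 bins of the last 20% of the schedule. That part of the haploid schedule is deciles 9 and 10, with 4511 bins each. In 5 regions there were 5 or more neighbouring bins of this kind. The same count was not made in mid cells. At chr14:10250001-10700000, inside Fhit, a very long gene at a common fragile site, 74.4% of late and 20% of mid copies were replicated. The region chr1:67400001-67950000, without a protein-coding gene, had 67.5% and 18.4%. The region chr12:30150001-30500000 with Sntg2, a syntrophin gene, had 56.04% and 26.5%, and chr3:61700001-62000000, without any annotated gene, had 55.1% and 29.05%. In the order named, haploid cells of late progress had 0%, 7.07%, 11.7% and 9.09% in these regions, in each less than diploid mid cells. The regions were chosen as late by the haploid schedule and replicated in most late diploid copies. A difference between the lines was therefore largely set in advance, and it was not tested. The fifth, chr12:113950001-114400000, has 32 annotated variable segments of the immunoglobulin heavy chain. It was at 66.3% in late cells but higher, at 77.1%, in mid cells, and only 2.27% in haploid cells of late progress. A11 had all 5 regions in full.

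**Figure D4:**
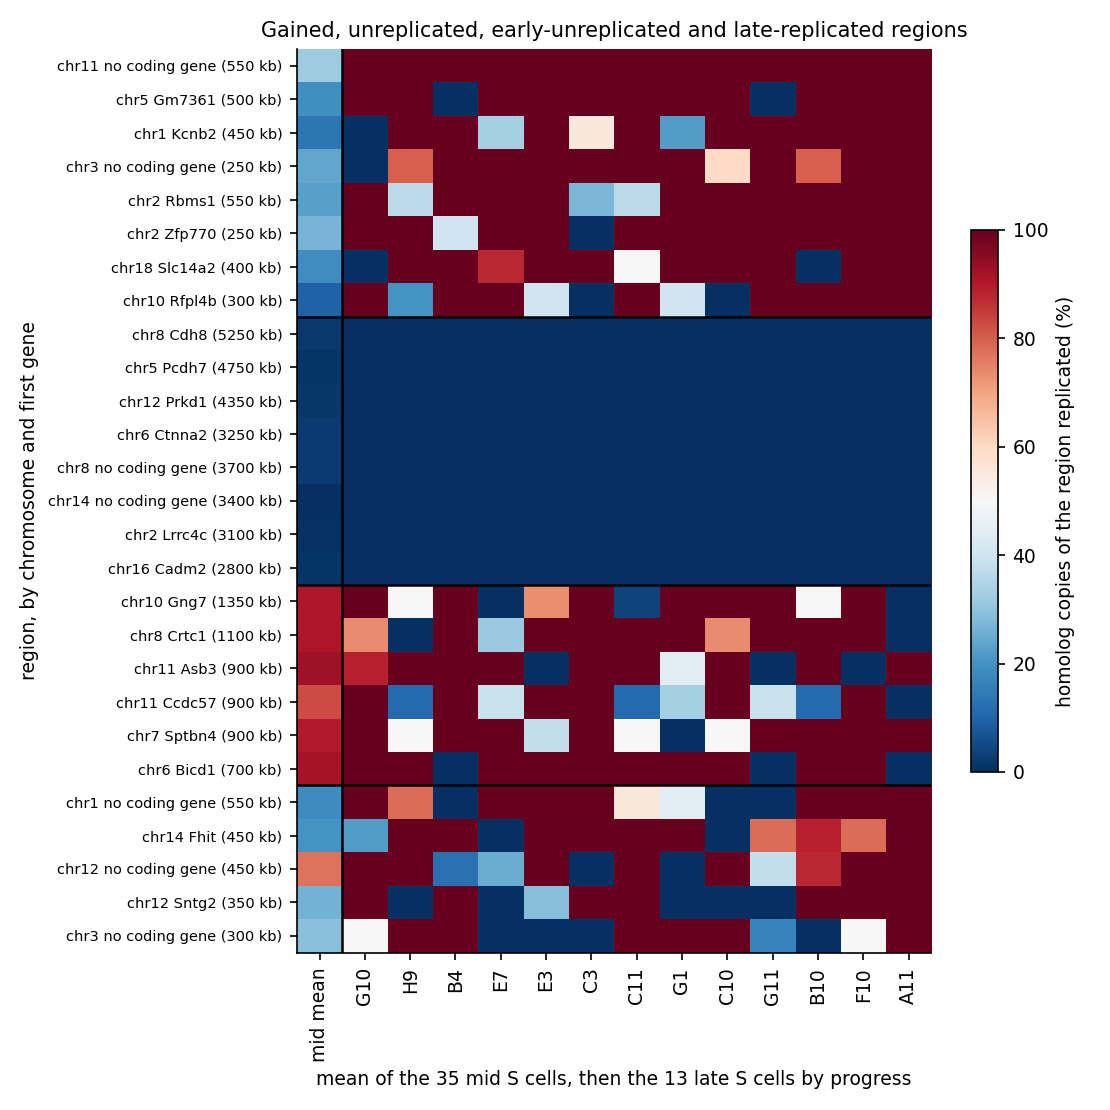
Percentage of homolog copies replicated (colour, blue 0 to red 100) in the gained, unreplicated, early-unreplicated and late-replicated regions named in the text (rows, separated by lines from top to bottom in that order, labelled by chromosome, first gene and length). The first column is the mean of 35 mid S cells and the others are the 13 late S cells in order of progress. The second block is 0 in every late cell by its definition, and in the third block the unreplicated cells differ from region to region, with A11 at 0 in 4 rows.

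Asynchronous stretches rarely recurred between late cells. Of the used autosomal bins, 2055 differed between homologs in 1 late cell and 104, in 9 regions, in 2 late cells, and none differed in more. The longest, chr4:18000001-18950000, contains Mmp16 and Cnbd1. The others named by length were chr1:40850001-41650000 with Tmem182, chr1:99550001-100250000 with Cntnap5b, chr10:63950001-64650000 with Ctnna3 and Lrrtm3, and chr9:120600001-121200000 with Ulk4 and Ctnnb1, the beta-catenin gene. Late shares replicated in these were 14.2%, 17.3%, 7.69%, 31.9% and 84.6%.

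Gene groups were read at the bin of each gene's annotated start. Of 19318 protein-coding genes with a value, 93, or 0.481%, were gained by 50 points, and 247, or 1.28%, were unreplicated in every late cell, while 8486, or 43.9%, were replicated in all. The median late share over all genes was 92.3% and the median mid share 94.3%, and the median difference per gene was 1.43 points.

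Genes that mESCs use for self-renewal, DNA replication and translation were replicated in most cells of both groups, as most protein-coding genes were. Of 24 core pluripotency genes with a value, 17 were replicated in all late cells, where 43.9% of all genes were, 0 were gained and the median difference was 0 points. Dppa4 and Prdm14 stood at 100% in late and 94.3% in mid cells, whereas Zfp42, which encodes Rex1, had 76.9% and 82.9%. Of 36 genes of replication licensing and the fork, 16 were replicated in all late cells, a share near that of all genes. Cdc7, the kinase that fires origins, had 92.3% in late and 62.9% in mid cells, Orc3, an origin recognition subunit, 100% and 85.7%, Pola2, a DNA polymerase alpha subunit, 76.9% and 94.3%, and Mcm6, a helicase subunit, 84.6% and 100%. Of 91 genes with ribosomal protein symbols, of which 8 are Rps6k kinases, 46 were replicated in all late cells, also near that share. Rps23 had 61.5% in late and 28.6% in mid cells, and Rps12 had 69.2% and 97.1%.

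Clustered genes differed by cluster. Of 39 Hox genes, which set position along the body axis, 28 were replicated in all late cells, where 43.9% of all genes were. The Hoxa, Hoxb and Hoxd clusters had late medians of 100%, Hoxd10 and Hoxd11 coming from 85.7% in mid cells, and the Hoxc cluster 84.6% from 97.1%, with A11 at 0% for Hoxc10 and Hoxc11. The clustered protocadherins, neuronal adhesion genes, had a median of 100% in late and 81.4% in mid cells. Of 56 protocadherins, 35 were replicated in all late cells, where 43.9% of all genes were, and 21 of the 35 were gamma genes. Their beta genes had the largest median difference, 25.2 points, with Pcdhb10 at 72.9% in mid cells, while the gamma genes were at 98.6% already. None of the 56 was gained by 50 points, where 0.481% of all genes were.

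Keratin associated protein genes, which build hair, had a median of 92.3% in late and 50.0% in mid cells, and 26 of 57 lay at least 20 points higher in late cells, where 8.61% of all genes did. The 23 on chromosome 11 had a median difference of 40.9 points, with Krtap2-4 at 92.3% and 50.0%, whereas the 24 on chromosome 16 went from a median of 0% to 15.4%. Neighbouring genes share bins, so these genes are not separate measurements.

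Sensory receptor genes were spread across the front. Olfactory receptor genes had a median of 38.5% in late and 22.9% in mid cells. Of 1057, 7 were gained by 50 points, 131 replicated in all late cells and 34 in none. Over all genes these shares were 0.481%, 43.9% and 1.28%, so the gained share was near that of all genes. By chromosome their late medians ran from 100% for 23 genes on chromosome 4 to 7.69% for 28 genes on chromosome 6, and the 31 genes on chromosome 16 differed most between groups, by a median of 32.7 points. Olfr566 and Olfr568 had 61.5% in late and 10% in mid cells. Vomeronasal receptor genes, which detect pheromones, had medians of 46.2% and 30%. Where 0.481% of all genes were gained, 6 of 201 of these were, among them Vmn1r62 at 84.6% and 17.1%. Vmn1r4 went the other way, with 46.2% in late and 78.6% in mid cells.

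The globin genes split by locus. All 4 alpha-type genes on chromosome 11 were replicated in every late and every mid cell, Hba-a1 and Hba-a2 included. The 5 beta-type genes on chromosome 7 had a median of 15.4% in late and 7.14% in mid cells, and A11 had replicated Hbb-bh1 and Hbb-bh2. Of 42 defensin genes, which encode antimicrobial peptides, 15 were replicated in all late cells, below the 43.9% of all genes, with Defb9 and Defb10 at 76.9% in late and 57.1% in mid cells and Defb30 and Defb42 at 84.6% and 97.1%.

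Very large genes, some of them at common fragile sites, had the lowest mean share of the lists, 33.97% in late and 23.1% in mid cells. Of 48, 0 were replicated in all late cells, where 43.9% of all genes were, and 12 were unreplicated in all, where 1.28% were. Their median was 25% in late and 10% in mid cells. Each gene was read only at the bin of its start. Asic2, an ion channel gene, had 69.2% in late and 14.3% in mid cells. Robo2, an axon guidance receptor gene, had 0% in late and 12.9% in mid cells, and Dlg2, a synaptic scaffold gene, 46.2% and 60%.

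Of 38 neural lineage genes, 12 were replicated in all late cells, below the 43.9% of all genes. A further 3 were replicated in none and 1 was gained, where 1.28% and 0.481% of all genes were. The gained gene was Nkx2-1, a forebrain and lung transcription factor gene, with 69.2% in late and 17.1% in mid cells. Dlx5, a homeobox gene of forebrain and skeleton, had 53.8% and 7.14%, while its relatives Dlx1 and Dlx2 had 76.9% and 97.1%. Of 36 genes of mesoderm, endoderm and trophoblast, 16 were replicated in all late cells and 1 in none, near the 43.9% and 1.28% of all genes. The endoderm factor genes Foxa1 and Foxa2 had 84.6% and 46.2% in late cells, from 40% and 11.4% in mid cells, and Mesp1 and Mesp2, of early mesoderm, 76.9% and 97.1%.

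**Figure D5:**
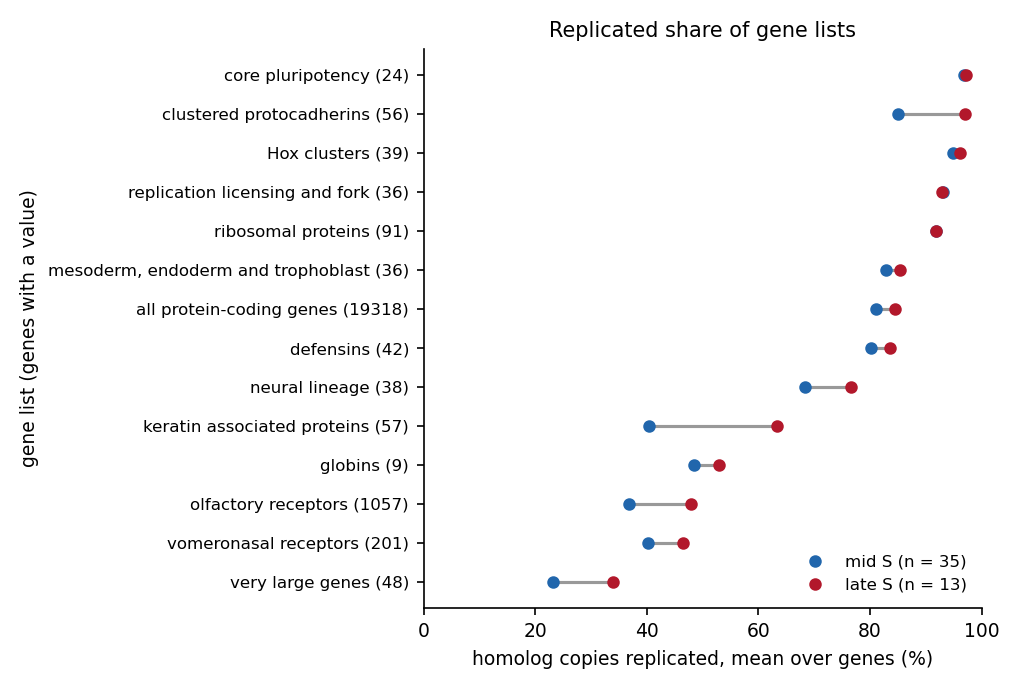
Mean percentage of homolog copies replicated (horizontal axis) over the genes of each list (vertical axis, number of genes with a value in brackets) in 35 mid S cells (blue) and 13 late S cells (red), joined by a line. Keratin associated proteins have the longest line, from 40.4% to 63.3%, and the core pluripotency, licensing and ribosomal lists the shortest.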

How the data were processed

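Nuclei were sorted by DNA content, amplified and sequenced. The authors aligned reads to mm10 with Bowtie2, counted them in 50 kb windows, divided by G1 and G2 control cells, scaled each cell and median smoothed it. The deposited smoothed values are a score, relative within a cell. The deposited binarized states (other values, 0 or 1) were made by the authors from segments of these scores with a threshold per cell, on which the position of a cell in S phase depends. Depth per cell is unknown.

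Columns were matched to labelled wells, and 24 that matched none were not used. Diploid columns were among them, so some diploid cells with values lie outside the 63 described here. Of 52685 bins, 45112 autosomal and 2700 X bins were used, those with a state in all cells that were also scored in 50% or more of each line's cells. The schedule is the percentile rank of the mean haploid score. Genes came from GENCODE M21, and GC and repeat shares from GRCm38.p6, whose chromosome lengths fit the bins. The 3 permutation tests over cells (numpy 2.4.6) were tested on simulated data.

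Named were the 8 gained regions of largest difference, the 8 longest unreplicated, 6 longest early-unreplicated, the late-replicated and the 5 longest recurrently asynchronous regions, each of at least 5 bins, with up to 4 genes, and per list the 2 genes of highest and the 2 of lowest difference, some left out of the text, and a few genes that the rule names are not reported here. The members and lists were chosen with earlier results of these data known.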

Additional observations from a re-analysis of the deposited data

How the results depend on the processing

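The X chromosome difference kept its direction and passed in every alternative run, with adjusted p from 3e-05 to 0.0033 and values from 3.12 points (smoothed score above 0 in place of the state) to 15.6 (late cells from 65% on). In each run the X values came from the same cell profiles that set the groups, so none made the test independent of the choice. The asynchrony difference stayed negative and did not pass in any. The difference in bins without a score turned to -0.0328 with late cells from 65% on, -0.0556 without C3 and E3, and -0.0543 without C3, E3 and A11. With late cells from 65% on, only 3 cells, the largest gain in a decile was 37.1 points against 20.2, and it was 31.2 with mid cells at 45 to under 55% and 12.4 with the smoothed score. The count of 521 gained bins moved to 4611 with late cells from 65% on, 2199 with mid cells at 45 to under 55%, 150 with groups set on odd-numbered and values read on even-numbered autosomes, 165 with the smoothed score, 1638 at 40 points and 87 at 60 points. The count of 4322 bins unreplicated in every late cell moved to 6606 from 65% on, 1957 on even-numbered autosomes, 9745 with the smoothed score and 7266 without C3, E3 and A11. The even-numbered counts cover fewer bins, and odd-numbered autosomes alone put 19 cells in late S. Of 66 alternative values 52 kept their direction and side of the threshold or stayed within the spread, including order and run length. For order and run length that spread is the SD over late cells, 0.0397 and 196 kb, which A11 widens. The main differences of -0.0118 and -63.6 kb became -0.0493 and -185 kb with the smoothed score. Without C3, E3 and A11 both changed sign, to 0.00193 and 4.64 kb. No pair of cells agreed in over 95% of bins, so leaving out near-identical cells changed nothing. The settings without C3 and E3, and the restriction of the X to bins scored in the same cell (9.25 points), were chosen after seeing the data. No paired analysis was possible because the cells carry plate wells and no shared replicate numbers. The depth of each cell is unknown, so how far depth limits the states of single cells was not tested.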

Other observations

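Late cells came from 7 of the 8 plate rows, with 3 each in rows C and G, 2 each in B and E, and 0 in row D, where 6 mid cells lay. The skew of the smoothed scores averaged -0.0281 ± 0.142 (SD, n = 13) in late and 0.117 ± 0.129 (SD, n = 35) in mid cells, and their SD 0.678 and 0.726. C3, at 0.576, and A11, at 0.581, had the lowest SD of the late cells.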
